A study of Mus musculus with 8 samples.

Results

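Spp1, which encodes osteopontin, and Msln, which encodes mesothelin, were examined in the muscle stem cells of 2-month-old C57BL/6 mice. They are 2 of the 24328 gene symbols measured, and they were chosen from these same libraries because both lay near 0 in uninjured muscle and were high after injury. Their levels in the 4 groups are therefore given as a description, with no test. RNA was sequenced in 8 libraries, 2 in each group, from cells that a sort had selected for Vcam and against CD31, CD45 and Sca-1. The PFA-perfused group came from Pax7-nGFP mice perfused with paraformaldehyde, which fixes the tissue before the muscle is digested. The PBS-perfused group came from Pax7-nGFP mice perfused with buffer. The unperfused group came from wild type mice without perfusion, and the injury-activated group from wild type, unperfused mice 2.5 days after an injury whose kind the labels do not name. The unperfused group is thus the uninjured group that shares genotype label and handling with the injury-activated one. Fixed and unfixed cells also differed in the RNA kit. Nothing in the labels ties the libraries of a group to different mice. The p-values below therefore cover only library-to-library spread, which may be technical.

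Osteopontin is a secreted, acidic phosphoprotein of the SIBLING family that binds cells through integrins, by an RGD motif, and through CD44. It is a component of bone matrix, a product of activated macrophages, and a protein that myoblasts of regenerating muscle also make. Mesothelin is a surface protein held by a GPI anchor, known from the mesothelial lining of the body cavities and from several tumours. It is cut from a larger precursor by furin and binds the mucin Muc16.

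Spp1 lies on mouse chromosome 5 and Msln on chromosome 17. Of the 2 genes, Spp1 was matched in the RefSeq promoter table. The 250 bases before its most upstream listed start are shown because the factors known to act on this promoter were among the genes measured. They span chr5:104434861-104435110 of GRCm38.p6 on the plus strand, whereas the reads were processed on mm9. Capitals mark the matches to 8 motifs searched on both strands.
Spp1 promoter: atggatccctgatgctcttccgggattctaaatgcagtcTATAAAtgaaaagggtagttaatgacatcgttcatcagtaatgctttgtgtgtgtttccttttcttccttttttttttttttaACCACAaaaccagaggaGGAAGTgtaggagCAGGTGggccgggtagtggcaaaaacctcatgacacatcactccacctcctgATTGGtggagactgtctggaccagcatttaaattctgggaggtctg

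The Runx motif ACCACA matched once, 128 to 123 bases before the start, and 14.0% of the 32851 promoter windows of this length in the table held a match. The Ets motif GGAAGT matched once, 111 to 106 bases before the start (19.7% of windows). The E-box CANNTG matched at 98 to 93 bases (66.2% of windows), and the CCAAT box CCAAT, read on the other strand, at 46 to 42 bases (33.8%). The TATA box motif TATAAA matched at 211 to 206 bases before the start (12.4%). None of these matches overlapped. The AP-1 motif TGANTCA (6.75% of windows), the TEAD motif CATTCC (12.6%) and the Sp1 motif GGGCGG (32.7%) had no match in this window.

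Values were FPKM, fragments scaled to transcript length and library size, so that levels of different genes can be compared. Spp1 stood at 228 and 243 FPKM in the 2 injury-activated libraries. In unperfused cells it stood at 0.0553 and 0.175 FPKM, in PFA-perfused cells at 0.241 and 1.19, and in PBS-perfused cells at 1.77 and 1.25. The injured and uninjured libraries did not overlap, and the lowest injury-activated value of Spp1 was 129 times the highest uninjured one. Since these are bulk samples, more cells that make a transcript and more transcript per cell cannot be told apart.

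Msln stood at 315 and 170.0 FPKM in the injury-activated libraries. It was listed at 0 in both unperfused libraries, at 0.906 and 1.00 FPKM in PFA-perfused cells and at 3.68 and 3.63 FPKM in PBS-perfused cells. Here too the injured and uninjured libraries did not overlap, and the lowest injury-activated value was 46.2 times the highest uninjured one. No fold is given against unperfused cells, where the gene was listed at 0.

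**Figure D1:**
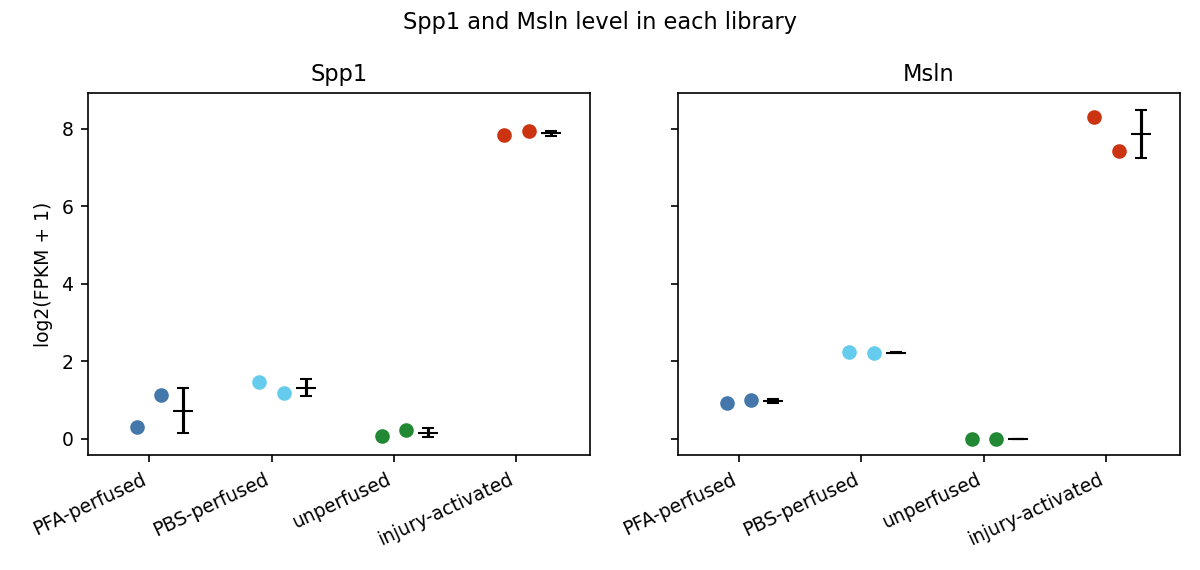
Level of Spp1 (left) and Msln (right) on the log2(FPKM + 1) scale, with 1 point for each of the 8 libraries, by group, with the group mean and SD (black bars, n = 2). Both injury-activated libraries of each gene lie above 7, whereas every uninjured library lies under 2.5.

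The mean level of Spp1 was 236 ± 11.1 FPKM (SD, n = 2) in injury-activated cells, 1.51 ± 0.368 in PBS-perfused, 0.716 ± 0.672 in PFA-perfused and 0.115 ± 0.0846 in unperfused cells. Msln followed the same order, with 243 ± 103, 3.66 ± 0.0340, 0.955 ± 0.0688 and 0. For Spp1, the PFA-perfused and unperfused means differed by 0.601 FPKM, less than the SD of the PFA-perfused libraries. The PBS-perfused and PFA-perfused means of Spp1 differed by 0.791 FPKM, and the nearest libraries of both groups stood at 1.25 and 1.19. When library totals were made equal after removal of the ribosomal precursor Rn45s and of Malat1, these 2 libraries stood at 1.27 and 1.35 FPKM, so that the groups overlapped. For Msln the uninjured groups lay apart by more than their SDs, with and without this scaling.

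On the log2(FPKM + 1) scale, Spp1 was higher in injury-activated cells by 7.73 than in unperfused, by 6.57 than in PBS-perfused and by 7.16 than in PFA-perfused cells. The difference of Msln was 5.64 against PBS-perfused and 6.89 against PFA-perfused cells. The 3 comparisons share the injury-activated libraries. For scale, the SD of the injury-activated libraries was 0.0674 for Spp1 and 0.627 for Msln on the same scale, and the median difference of all 12515 tested genes was 0.17, -0.11 and -0.48 against unperfused, PBS-perfused and PFA-perfused cells. After scaling by a trimmed mean of ratios these medians stood at 0.10, 0.16 and 0.15.

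Within the injury-activated libraries both genes were among the most abundant. Spp1 ranked 456 and 425 from the top of the 24328 symbols in replicates 1 and 2. Msln ranked 310 and 602. In the uninjured libraries Spp1 ranked from 9371 to 14629, and Msln from 7626 to 11572 where it was above 0. Spp1 made up 0.0416 and 0.0441% of the summed FPKM of the injury-activated libraries, and Msln 0.0575 and 0.0308%.

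The 2 injury-activated replicates differed little for Spp1 and widely for Msln. Replicate 2 held 1.07 times as much Spp1 as replicate 1, against a median ratio of 1.04 over the 991 genes that averaged 100 FPKM or more in this group, of which 269 had a wider ratio than Spp1. Msln was 1.85 times as high in replicate 1 as in replicate 2, the widest ratio of all 991 genes. After it came Atp5g1, a subunit of ATP synthase, at 1.73, the antioxidant enzyme Gpx3 at 1.52 and the skeletal actin Acta1 at 1.42. These 3 genes were picked by this ratio after their values were seen. Among the 4847 genes of at least 10 FPKM, 18 had a wider ratio than Msln. The ratio of Msln to Spp1 was accordingly 1.38 in replicate 1 and 0.698 in replicate 2, so the order of the 2 genes in injured muscle differed between the replicates.

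**Figure D2:**
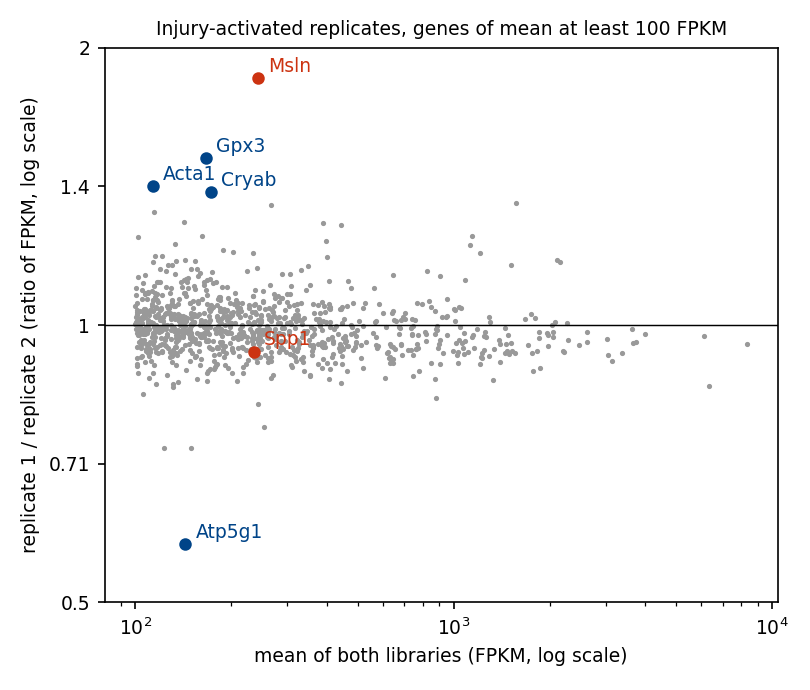
Ratio of replicate 1 to replicate 2 (vertical, log scale) against the mean of both (horizontal, FPKM, log scale) for the 991 genes that averaged 100 FPKM or more in injury-activated cells. Spp1 lies near the line of equal values, and Msln lies farthest from it at 1.85.

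Both genes were chosen for low uninjured and high injured values in these libraries, so the counts and ranks here are a description. The limits were also set by the genes' own values, so they are no test of how rare the pattern is. No other gene of the table was at or under the highest uninjured value of Spp1 (1.77 FPKM) and at or above its lowest injury-activated value (228 FPKM). Within the wider limits of Msln, at most 3.68 FPKM in every uninjured library and at least 170.0 FPKM in both injury-activated ones, there were 3 genes. The third gene beside Spp1 and Msln was Ccnb1, the cyclin of mitotic entry, at 2.54 FPKM in its highest uninjured library and 245 in its lower injury-activated one. Among 4735 genes with at least 10 FPKM in both injury-activated libraries and above 0 in an uninjured one, Spp1 ranked 3 and Msln 27 by the ratio of the lowest injured to the highest uninjured value. Ahead of Spp1 were Hmga2, a chromatin protein of proliferating progenitors (212), and Prkg2, a cGMP-dependent kinase (200). Next after it came Krt8 (119), Il18rap (112) and Ccnb1 (96.2).

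**Figure D3:**
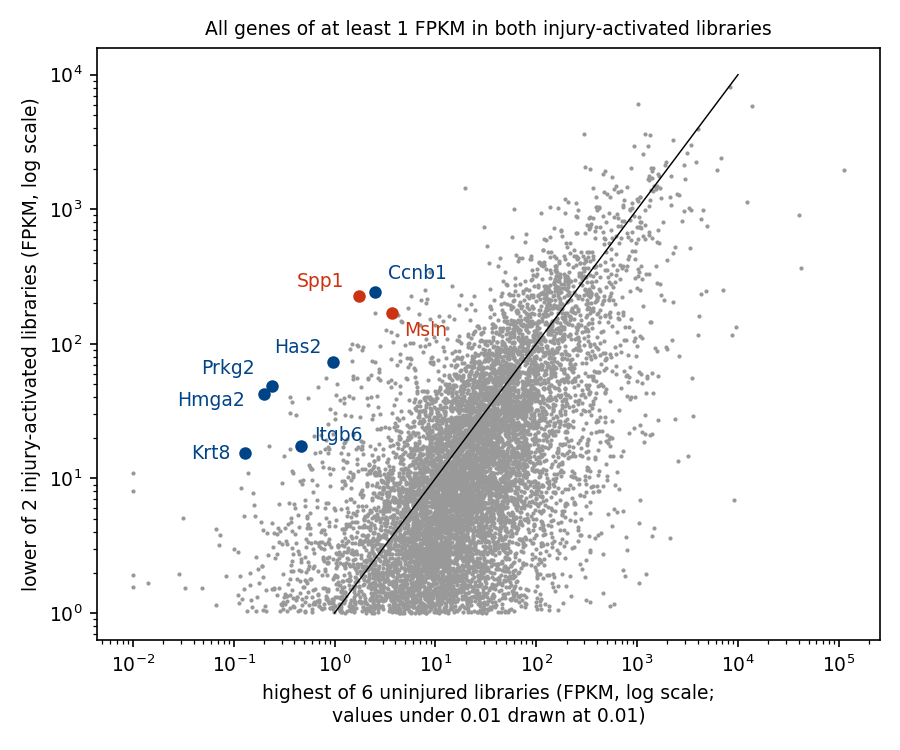
Lower of the 2 injury-activated values (vertical, FPKM, log scale) against the highest of the 6 uninjured values (horizontal, FPKM, log scale) for every gene of at least 1 FPKM in both injury-activated libraries, with the line of equal values. Spp1 and Msln (red) lie at the upper left with Ccnb1, at 1.77, 3.68 and 2.54 FPKM on the horizontal axis.

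A stricter criterion, under 1 FPKM in all 6 uninjured libraries and at least 10 in both injury-activated ones, was met by 41 genes. Neither Spp1 nor Msln was among them, since Spp1 passed 1 FPKM in 3 and Msln in 3 uninjured libraries. The 10 most abundant of the 41 were Has2, E2f8, Prkg2, Cdc6, Hmga2, Cst6, Il18rap, Kif2c, Murc and Kif23, with means from 79.8 to 33.8 FPKM in injury-activated cells. Has2, which makes hyaluronan, the main ligand of CD44, stood at 85.9 and 73.7 FPKM and at most at 0.956 in uninjured muscle. E2f8, Cdc6, Kif2c and Kif23 are genes of DNA replication and mitosis.

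By Pearson correlation of log2(FPKM + 1) over the 8 libraries, the genes most like Spp1 among 4846 with at least 10 FPKM in injury-activated cells were Cks2 (r = 0.996), Aurka, Rrm1, Nrcam, E2f7, Murc, Dusp27 and Trp53i11 (0.993). Cks2 and Aurka act in mitosis and Rrm1 in nucleotide supply. The 8 genes most like Msln included Ldha (0.994), Trim16, Cks2, Gatm, Il34, Rbpms2 and Nrcam (0.988). Cks2 and Nrcam stood in both lists. These values describe likeness over libraries that fall into 1 high and 3 low groups, and 674 genes for Spp1 and 584 for Msln exceeded 0.9. The order at the top was loose: with 1 library left out, 2 to 6 of the 8 genes named for Spp1 and 3 to 7 of the 8 for Msln stayed among the first 8.

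The nearest protein-coding neighbours of both genes did not reach their levels after injury. Only 1.27 to 2.47% of all symbols stood at or above these levels in an injury-activated library, so the same holds for most genes. By the order of protein-coding genes in GRCm38.p6, the 4 genes on 1 side of Spp1 are the other SIBLING family members, Mepe, Ibsp, Dmp1 and Dspp, which encode proteins of bone and tooth matrix. Mepe and Dspp were listed at 0 in all 8 libraries, Ibsp reached at most 0.214 FPKM and Dmp1 at most 0.543, so none of the 4 was tested. On the other side, Pkd2, a cation channel, stood at 2.21 and 1.98 FPKM in injury-activated cells and at 9.09 to 29.9 in the uninjured libraries. Mslnl, the mesothelin-like gene next to Msln, was listed at 0 in both injury-activated libraries and reached 0.156 FPKM elsewhere. The next gene on the other side of Msln, listed under its older name Narfl, stood at 9.71 and 9.15 FPKM in injury-activated cells and at up to 13.8 in uninjured muscle. Farther out, Chtf18, a subunit of a clamp loader of DNA replication, was higher after injury, at 16.5 and 18.8 FPKM against at most 2.53 in uninjured libraries. No protein-coding neighbour overlapped Spp1 or Msln in that annotation.

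The receptors of osteopontin were compared next, in a test that used all genes (limma, Benjamini-Hochberg adjusted p under 0.05). Of 11 receptor genes, 7 passed the filter of 1 FPKM in at least 2 libraries. Against unperfused cells 1 rose, 4 fell and 2 were not called. Of all tested genes 40.8% were called higher and 29.3% lower in this comparison, 70.0% in either direction. The median difference of the 7 receptors was -1.35, against 0.17 for all genes.

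Itgb6, the beta chain of integrin alpha-v beta-6, was the receptor gene that rose. It stood at 18.3 and 17.5 FPKM in injury-activated cells and between 0 and 0.468 in the 6 uninjured libraries. The groups did not overlap, and the difference from unperfused cells was 3.88 ± 0.20 (SE; limma adjusted p = 9.7e-07). It was 4.02 ± 0.20 against PBS-perfused cells, and Itgb6 was called higher than in PFA-perfused cells as well (adjusted p = 5.8e-07). Itgb6 passed the filter only through the injury-activated libraries, which a gene can do only if it is higher there.

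The partner of that chain, Itgav, the alpha-v chain, was lower than in the unfixed uninjured cells. It stood at 9.13 and 9.63 FPKM after injury, at 27.3 and 23.6 in unperfused, 24.8 and 21.5 in PBS-perfused and 7.95 and 9.27 in PFA-perfused cells. It fell against unperfused cells (-1.35 ± 0.20, limma adjusted p = 2.3e-04) and its injured values overlapped with those of PFA-perfused cells.

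Cd44, the receptor for hyaluronan and osteopontin, was already high in unfixed uninjured cells. It stood at 237 and 229 FPKM after injury, at 388 and 272 in unperfused, 81.0 and 115 in PBS-perfused and 9.56 and 11.9 in PFA-perfused cells. It rose against PFA-perfused (4.33 ± 0.27) and PBS-perfused cells (1.26 ± 0.27) and was not called against unperfused cells (-0.48 ± 0.27, adjusted p = 0.14). It was called lower there after scaling by the trimmed mean of ratios (-0.61), quantile normalization (-0.95) and equal totals (-0.71).

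Of the other receptor chains, Itga5, which binds fibronectin and osteopontin with Itgb1, fell against unperfused cells (-1.87 ± 0.20) and rose against PFA-perfused ones (2.10 ± 0.20). Itgb5 (-1.41 ± 0.22) and Itga8 (-1.88 ± 0.29) fell against unperfused cells. Itgb1, the most abundant integrin chain of the list in PFA-perfused cells at 160 and 116 FPKM, stood at 91.7 and 89.9 after injury and was not called against unperfused cells (-0.21 ± 0.27; -0.62 and called after quantile normalization). Itgb3, the beta chain of the receptor best known from osteoclasts, reached at most 0.348 FPKM in any library. Itgb7, Itga4 and Itga9 stayed under 0.8 FPKM. Against PBS-perfused cells 2 receptors rose and 5 fell, with 34.4% of all genes called higher, 38.8% lower and 73.2% in either direction. Against PFA-perfused cells 3 rose and 2 fell, with 26.1% of all genes called higher, 47.3% lower and 73.5% in either direction. After scaling by the trimmed mean of ratios 4 rose and 2 fell against PFA-perfused cells, while all genes split into 5053 higher and 4073 lower in place of 3272 and 5925. Quantile normalization gave 4385 higher and 4279 lower genes.

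Enzymes that cut, cross-link or phosphorylate osteopontin were mostly at low levels. Of 9 genes, 3 passed the filter. Of these 1 rose and none fell against unperfused cells, beside 40.8% and 29.3% of all tested genes. Against PBS-perfused and against PFA-perfused cells 1 rose and 2 fell. Beside them stood 34.4% and 38.8% of all tested genes against PBS-perfused, and 26.1% and 47.3% against PFA-perfused cells. Mmp3, a matrix protease that cuts osteopontin, stood at 2.79 and 1.80 FPKM after injury and at most at 0.580 in uninjured muscle. It was higher than in unperfused cells by 1.57 ± 0.17 (adjusted p = 3.3e-05), and it passed the filter only through the injury-activated libraries. Tgm2, a transglutaminase that cross-links osteopontin, stood at 2.36 and 2.77 FPKM after injury, near the 3.32 and 2.82 of unperfused cells, and fell against PBS-perfused cells (-3.50 ± 0.22), where it stood at 33.8 and 45.7. Fam20c, the kinase that phosphorylates it, fell against PBS-perfused (-2.05 ± 0.22) and PFA-perfused cells (-1.99 ± 0.22) and was not called against unperfused ones (-0.53 ± 0.22, adjusted p = 0.058; called under each of the 3 other scalings). Thrombin (F2), plasminogen (Plg), Mmp7, Mmp9, Mmp12 and the phosphatase Acp5 stayed under 0.6 FPKM in all libraries.

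On the mesothelin side, 4 of 7 partners and relatives were tested. Of these 1 rose and 3 fell against unperfused cells, where 40.8% of all tested genes rose and 29.3% fell. Against PBS-perfused cells none rose and 2 fell (2 and 2 after the trimmed mean of ratios), beside 34.4% and 38.8% of all tested genes. Against PFA-perfused cells 1 rose and 3 fell, beside 26.1% and 47.3%. Furin, the protease that releases mesothelin from its precursor, stood at 4.74 and 5.49 FPKM in injury-activated cells. It stood at 83.2 and 78.9 in unperfused, 23.3 and 66.8 in PBS-perfused and 25.03 and 23.3 in PFA-perfused cells. The injured values lay under all uninjured ones, and Furin fell in the 3 comparisons, with a difference of -3.75 ± 0.40 against unperfused cells (adjusted p = 3.2e-05).

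Adam17, a protease that sheds mesothelin from the surface, stood at 59.1 and 105 FPKM after injury and at 57.6 and 18.6 in unperfused cells. Both groups were wide, and the call (1.24 ± 0.46, adjusted p = 0.038) was lost in 11 of the alternative analyses, among them no filter (adjusted p = 0.12) and the removal of unperfused replicate 2 (difference 0.45, adjusted p = 0.29) or of injury-activated replicate 2 (0.83, adjusted p = 0.22). Adam17 rose against PFA-perfused cells (1.88 ± 0.46, adjusted p = 0.005). Against PBS-perfused cells it was not called (1.09 ± 0.46, adjusted p = 0.058), but it was called higher in 6 alternative analyses, such as after the trimmed mean of ratios (1.44, adjusted p = 0.013) and without injury-activated replicate 1 (adjusted p = 0.035). Bace1, another sheddase, fell against unperfused cells (-1.65 ± 0.22), as did Otoa, a relative of mesothelin known from the inner ear (-1.08 ± 0.23). Strc, a further relative, stayed under 0.3 FPKM. Muc16 had no entry among the gene symbols measured.

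**Figure D4:**
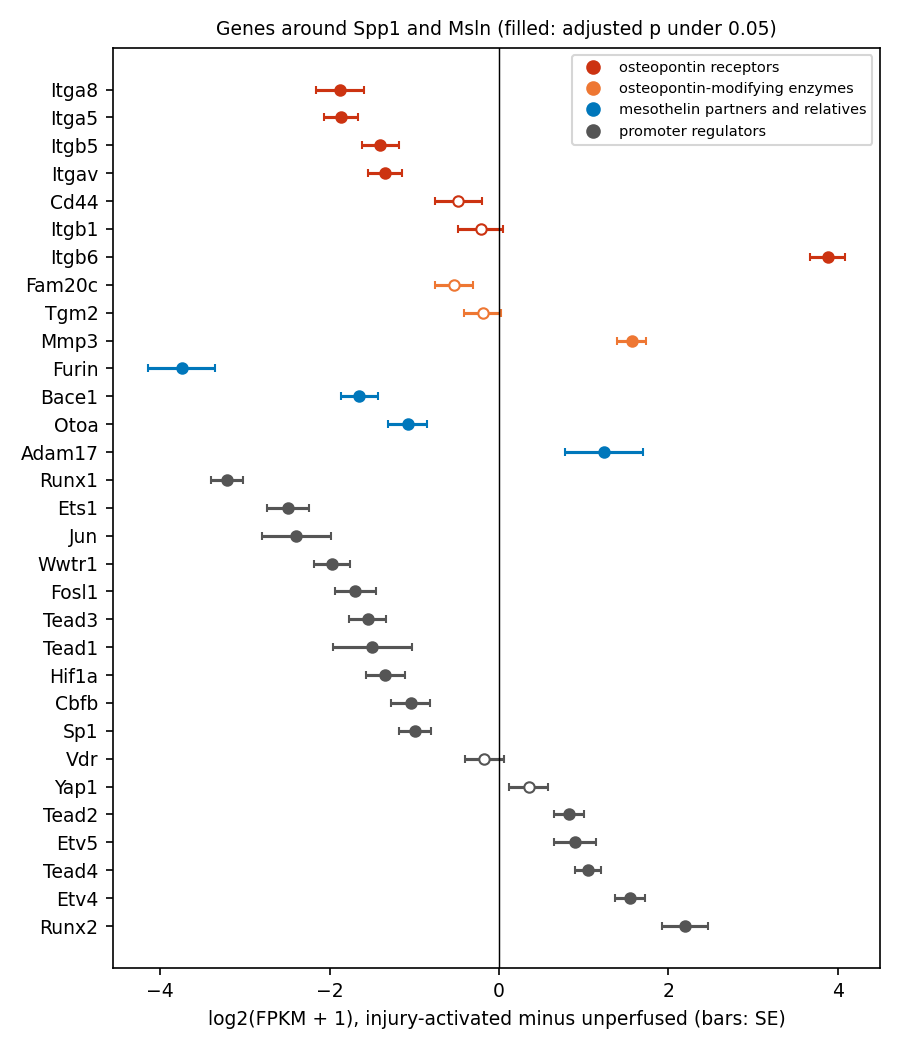
Difference of log2(FPKM + 1) between injury-activated and unperfused cells (points, with SE as bars) for the tested receptors, enzymes, partners and promoter regulators of Spp1 and Msln. Filled points passed an adjusted p of 0.05, and Itgb6 at 3.88 and Furin at -3.75 lie at the ends.

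Factors known to act on the Spp1 or Msln promoter moved in both directions. Of 18 genes, 17 were tested. Against unperfused cells 5 rose, 10 fell and 2 were not called, with a median of -1.04. Of all tested genes 40.8% rose and 29.3% fell in this comparison. Of the 5 that rose, Tead4 and Etv4, an Ets factor, passed the filter only through the injury-activated libraries. Against PBS-perfused cells 6 rose and 9 fell, beside 34.4% and 38.8% of all tested genes. Against PFA-perfused cells 5 rose and 7 fell (8 and 3 after scaling by the trimmed mean of ratios). The 5 and 7 were near the 26.1% higher and 47.3% lower of all tested genes. Runx2, the osteoblast factor that binds the Runx motif, stood at 11.1 and 11.4 FPKM after injury and from 0.286 to 2.48 in uninjured muscle. It rose against unperfused (2.20 ± 0.27, adjusted p = 8.1e-05), PBS-perfused (2.84 ± 0.27) and PFA-perfused cells (2.97 ± 0.27). Its relative Runx1 stood at 4.23 and 4.46 FPKM after injury and fell against unperfused cells (-3.21 ± 0.19), where it stood at 49.1 and 48.1. The injured libraries thus held more Runx2 than Runx1, and every uninjured library the reverse.

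Ets1, which binds the Ets motif, stood at 65.5 and 61.9 FPKM after injury. It fell against unperfused cells (-2.49 ± 0.25), where it stood at 314 and 421, and rose against PBS-perfused (1.07 ± 0.25) and PFA-perfused cells (4.54 ± 0.25). Jun, an AP-1 subunit, fell in the 3 comparisons (-2.40 ± 0.41 against unperfused cells). Of the Tead factors, which act on the mesothelin promoter, Tead2 (0.83 ± 0.18) and Tead4 (1.05 ± 0.16) rose and Tead1 (-1.50 ± 0.47) and Tead3 (-1.55 ± 0.22) fell against unperfused cells. The call of Tead1 was lost without unperfused replicate 1 (adjusted p = 0.11) or 2 (0.054), without injury-activated replicate 2 (0.067) and with no filter (0.077). Tead4 stood at 1.53 and 1.16 FPKM after injury.

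Osteopontin belongs to the matricellular proteins, secreted proteins that signal to cells rather than build the matrix. Of 19 other genes of this kind, 18 were tested. Against unperfused cells 8 rose and 6 fell, with a median of 0.71, shares near the 40.8% higher and 29.3% lower of all tested genes. Lgals3, a galectin, stood at 307 and 227 FPKM after injury, close to the levels of Spp1 and Msln, and at 2.46 to 24.0 in uninjured libraries (5.98 ± 0.71, adjusted p = 6.4e-05). Mgp, an inhibitor of calcification (3.81 ± 0.35), and Thbs4, a thrombospondin of muscle and tendon (3.31 ± 0.63), rose as well. Ctgf, a target of Yap signalling, fell from 188 and 40.3 FPKM to 3.50 and 3.16 (-4.35 ± 0.63). Against PBS-perfused cells 6 of these genes rose and 8 fell (median 0.02; -0.10 after quantile normalization and -0.15 with equal totals). Against PFA-perfused cells 10 rose and 5 fell (median 0.92). Of all tested genes 34.4% rose and 38.8% fell against PBS-perfused cells, and 26.1% and 47.3% against PFA-perfused cells. None of the 19 lay within the uninjured and injured limits set by Spp1 itself. No other gene of the 24328 did either, so this is no trait of these genes.

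The labelled cell type and the markers of other cells were checked in the same libraries. Of the satellite cell genes, Pax7 stood at 4.59 and 4.40 FPKM, Myf5 at 82.8 and 80.9, Myod1 at 42.8 and 40.7 and the sorting marker Vcam1 at 241 and 234 in the injury-activated libraries. In unperfused, PBS-perfused and PFA-perfused cells in turn, Pax7 averaged 20.1, 63.9 and 448 FPKM and Myod1 318, 749 and 150. Myf5 averaged 1930, 118 and 270, and Vcam1 120, 359 and 106. Of 10 such markers 1 rose and 7 fell against unperfused cells, beside 40.8% and 29.3% of all tested genes. Against PBS-perfused cells 1 was higher and 6 lower, beside 34.4% and 38.8%. Against PFA-perfused cells 3 were higher and 7 lower, beside 26.1% and 47.3%. Calcr and Chrdl2, markers of quiescent cells, were under 1 FPKM in both injury-activated libraries. Total FPKM was 461454 to 582336 per library.

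Macrophages are a known source of osteopontin, and most tested macrophage markers were higher after injury than in unperfused cells. Their 22 genes summed to 118 and 125 FPKM in the injury-activated libraries, to 35.1 and 44.8 in unperfused, 68.9 and 75.2 in PBS-perfused and 16.8 and 18.6 in PFA-perfused cells. Of the 15 tested, 13 rose and 1 fell against unperfused cells, beside 40.8% and 29.3% of all tested genes. Of the 15, Adgre1, Fcer1g, Mrc1 and Trem2 passed the filter only through the injury-activated libraries, so they could only be higher there. Against PBS-perfused cells 9 rose and 2 fell, beside 34.4% and 38.8% of all tested genes. Against PFA-perfused cells 13 rose and 1 fell, beside 26.1% and 47.3%. Lyz2, lysozyme, was the most abundant at 42.9 and 44.0 FPKM (5.04 ± 0.18 against unperfused cells), followed in difference by Ctss (3.41), C1qb (2.78) and Gpnmb (1.85). In unperfused cells the largest single contribution was Cd68, at 32.1 and 23.0 FPKM, against 8.46 and 11.5 after injury. Cd74, C1qa and C1qc were lower after injury than in PBS-perfused cells. Cd74 stood at 6.05 and 8.14 FPKM against 23.1 and 12.7 there. The marker sums were higher in unperfused than in PFA-perfused cells, but this order rested on Cd68. In PFA-perfused cells Cd68 stood at 2.11 and 2.81 FPKM.

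The defining macrophage markers were low after injury, though above their unperfused values. Adgre1 stood at 1.67 and 2.00 FPKM (unperfused 0 and 0) and Csf1r at 2.85 and 3.10 (0.929 and 0.789). C1qa stood at 0.252 and 0.338 (0.0347 and 0). Ptprc, which encodes the CD45 excluded by the sort, stood at 0.203 and 0.250 (0 and 0.0195). In PBS-perfused cells C1qa was higher than after injury, and Csf1r overlapped at 1.49 and 3.45 FPKM. Spp1 was 5.31 and 5.53 times as high as Lyz2 in the injury-activated libraries. In the PBS-perfused libraries, where Lyz2 stood at 13.4 and 13.3 FPKM, this ratio was 0.132 and 0.0938. It was 0.129 and 0.635 in PFA-perfused and 0.142 and 0.546 in unperfused libraries. Spp1 was chosen for its rise, so these ratios are a description only. The part of macrophage RNA in the level of Spp1 was not tested.

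Most mesothelial markers stayed under 1 FPKM in the libraries where Msln was high. Of the 17 genes of this list, 16 were in the table, and 14 of these stayed under the filter. With no filter 15 were tested, of which 4 were called higher and 2 lower against unperfused cells. In that setting 5434 of all 20500 genes tested were called higher and 4067 lower. The share of the list called higher was thus near that of all genes. The defining markers Lrrn4 and Wt1 were listed at 0 in both injury-activated libraries, and Upk3b stood at 0 and 0.00255 FPKM. Krt8 and Krt18, keratins of simple epithelia, were the 2 that passed the filter. Krt18 stood at 34.3 and 30.7 FPKM after injury and at most at 0.364 in uninjured muscle (4.84 ± 0.19 against unperfused cells, adjusted p = 4.2e-07). Krt8 stood at 18.6 and 15.5 FPKM and at most at 0.130, with both unperfused libraries listed at 0. Both keratins passed the filter only through the injury-activated libraries. They made up most of the list's sum of 54.3 and 47.2 FPKM after injury, against 1.02 to 3.14 in uninjured libraries.

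Endothelial markers summed to 10.1 and 10.4 FPKM after injury, below their sums in the uninjured groups, which were 149 to 238 in PBS-perfused, 64.4 to 70.1 in PFA-perfused and 33.01 to 48.0 in unperfused libraries. These sums had the same order over the 3 uninjured groups as Spp1 and Msln, and their part in those low levels was not tested. None of the 10 endothelial markers rose and 3 fell against unperfused cells, beside 40.8% and 29.3% of all tested genes. Against PBS-perfused cells all 10 fell, beside 38.8% of all tested genes. Against PFA-perfused cells 6 fell (3 after the trimmed mean of ratios), beside 47.3%. Fibro-adipogenic markers summed to 144 and 116 FPKM after injury and to 660 to 1224 in the uninjured libraries. Of the 9 tested, 4 rose and 3 fell against unperfused cells, again near the 40.8% and 29.3% of all tested genes. Against PBS-perfused cells 1 rose and 6 fell, beside 34.4% and 38.8%. Against PFA-perfused cells 5 rose and 3 fell, beside 26.1% and 47.3%. Within that list Pdgfra (2.25 ± 0.26) and Ly6a (2.48 ± 0.19), which encodes the Sca-1 excluded by the sort, rose against unperfused cells, to 6.18 and 5.73 and to 8.40 and 7.58 FPKM. Ly6a was lower than in PBS-perfused cells, where it stood at 17.7 and 19.3 FPKM (-1.12 ± 0.19, adjusted p = 5.5e-04). Dpt fell from 474 and 456 to 5.81 and 5.61 FPKM. Glial markers summed to 6.50 and 7.18 FPKM after injury, with Sox10 under 0.1, and to 27.8 to 34.7 in PFA-perfused, 26.8 to 28.6 in PBS-perfused and 4.997 to 6.92 in unperfused libraries. Of the 4 tested, 1 rose and 2 fell against unperfused cells, beside 40.8% and 29.3% of all tested genes. Against PBS-perfused cells 1 rose and 3 fell (34.4% and 38.8%), and against PFA-perfused cells none rose and 3 fell (26.1% and 47.3%).

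**Figure D5:**
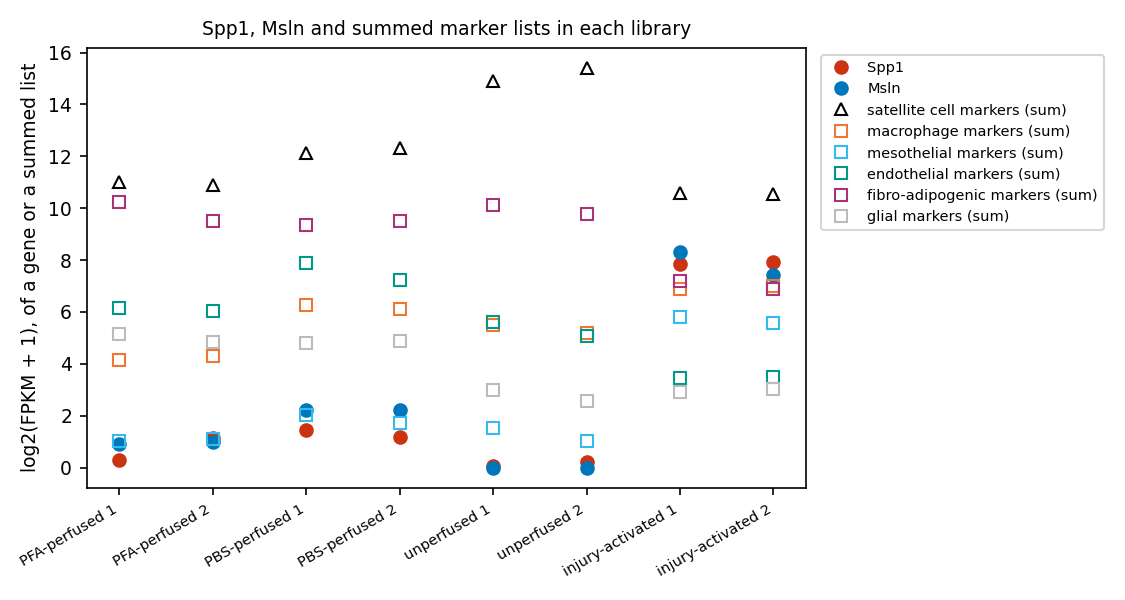
Level of Spp1 and Msln (filled circles) and summed levels of 6 marker lists (open symbols) across the 8 libraries, on the log2(FPKM + 1) scale. Spp1 and Msln lie among the lowest points in the uninjured libraries and above the macrophage and mesothelial sums in both injury-activated libraries.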

How the data were processed

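The table that the authors deposited holds 24328 gene symbols and 8 libraries, and its header names no unit. The deposited values were taken as FPKM because they hold decimals and their totals differ between libraries. Per the submitters' processing notes, STAR 2.5.3a, StringTie 1.3.3, R 3.4.1 and mm9 were used, with roles, annotation and settings not given in the sources used here. Read counts were not used here, so depth is unknown and no counting interval is given.

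Values were analysed as log2(FPKM + 1), without scaling. The 12515 genes that reached 1 FPKM in 2 or more libraries, Spp1 and Msln among them, entered 1 limma 3.58.1 fit in R 4.3.3, with a variance trend, no covariate and 3 two-sided contrasts. A pseudocount of 1 understates changes of low genes. The fit was checked on simulated data. The members and gene lists were chosen with earlier results of these data known. Named genes were both members, all receptor, enzyme, SIBLING and mesothelin genes, up to 4 called genes with the largest difference of each other list besides defining markers, the 8 genes most correlated with each member and the 10 most abundant genes under 1 FPKM before and at least 10 after injury. Tead genes, Vcam1, Cd68, Ccnb1, chromosome neighbours and replicate ratios were added after the values were seen. Alternatives were 3 scalings, a pseudocount of 0.1, no filter, a filter of 5 FPKM, the replicate number as a block, fits of 2 groups, a fold change tested against 1 (log2) and each library left out. Some genes that the rule names are not reported here.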

Additional observations from a re-analysis of the deposited data

How the results depend on the processing

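The levels of Spp1 and Msln kept their direction in every alternative run. Spp1 against unperfused cells was 7.94 after the trimmed mean of ratios, 7.30 after quantile normalization, 7.55 with equal totals and 10.15 with a pseudocount of 0.1. In the same order it was 6.88, 6.31, 6.39 and 7.21 against PBS-perfused cells. Against PFA-perfused cells, Spp1 was 7.60 and Msln 7.39 after the trimmed mean of ratios, and 8.47 and 7.78 with the pseudocount of 0.1. With 1 library left out, Spp1 ranged from 7.65 to 7.81, 6.42 to 6.72 and 6.75 to 7.57 against unperfused, PBS-perfused and PFA-perfused cells, and Msln from 5.20 to 6.08 and 6.45 to 7.34 against the last-named groups.

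Tested against a log2 change of 1, the calls were 2624 higher and 1583 lower against unperfused, 1956 and 2254 against PBS-perfused, and 1353 and 3002 against PFA-perfused cells. Of the listed genes 24 were then higher and 25 lower, 9 higher, and 24 higher and 24 lower, in place of 37 and 39, 29, and 43 and 39. The trimmed mean of ratios gave 5053 higher against PFA-perfused cells. With 1 library left out, listed genes called higher numbered 22 to 38, 17 to 31 and 30 to 42. The lowest counts came without an injury-activated library, where Itgb6, Mmp3, Krt8, Krt18, Tead4 and 5 other listed genes no longer reached 1 FPKM in 2 libraries. Such fits assume that the remaining library varies as those of other groups do.

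With the replicate number as a block, 5164 genes were higher and 3683 lower against unperfused cells, and it changed no call of a listed gene named here. Deviations of same-numbered libraries correlated between -0.047 and 0.117 over the 6 pairs of groups, so the numbers were not taken as pairs. The depth of the libraries is unknown and limits what can be said of values near 0.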
